A study of Mus musculus with 4 samples.

Results

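GC-rich promoters that carried weak trimethylation of histone H3 at lysine 4 (H3K4me3) in mouse embryonic stem cells with a scrambled hairpin were described in 4 chromatin immunoprecipitation sequencing (ChIP-seq) libraries. They were chosen among 22367 protein-coding genes of the GENCODE vM1 annotation on mm9. A promoter was taken as the 2 kb window centred on the gene-level transcription start site (TSS). It counted as GC-rich when the window held at least 55% G and C and lay on chromosomes 1 to 19, which gave 6523 promoters. The weak ones were the 1503 (23.04%) that held 1 to 8 reads per 1000000 reads kept (RPM) in the scramble H3K4me3 library. The 2642 GC-rich promoters (40.5%) above 20 RPM in that library are called strong here, and serve as the comparison. Another 2192 lay between these levels and 186 lay under 1 RPM.

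The study examined where the histone demethylase Jarid1b binds in stem cells and what its depletion does to H3K4me3. The first H3K4me3 library came from E14TG2a.4 cells transduced with a pLKO.1 lentivirus encoding a Jarid1b short hairpin RNA (shRNA). The second came from cells of the same line given a scramble pLKO.1 virus. Both kinds of cell were grown without feeders on gelatin with LIF, and were selected with puromycin. Of the Jarid1b libraries, replicates 1 and 2, the labels say E14 cells and an antibody named Jarid1b-DAIN, and name no hairpin. How far the hairpin lowered Jarid1b was not analysed here.

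Most mammalian promoters of broadly used and developmental genes sit in CpG islands, stretches of GC-rich DNA that keep their CG dinucleotides because they are usually unmethylated. H3K4me3 is laid down over such islands by the Set1 and Mll complexes and is strongest at transcribed genes. In embryonic stem cells many islands of silent developmental regulators carry a low level of H3K4me3 together with the Polycomb mark H3K27me3, a state known as bivalent. Jarid1b, encoded by Kdm5b, is an enzyme that takes methyl groups off this lysine. H3K27me3 was not analysed here, so none of the promoters below is called bivalent.

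The libraries held 2635705 reads kept for Jarid1b shRNA H3K4me3, 5158330 for scramble H3K4me3, and 4336767 and 1602370 for Jarid1b replicates 1 and 2. Repeated positions, which were removed, had made up 7.56% of the rows in the Jarid1b shRNA library and 31.5% in the scramble library. The Jarid1b files shared fragments, with 16.8% of plus-strand positions of one at the same base in the other, 9.73 times the median at other offsets, so they were counted as 1 sample. Each H3K4me3 condition had a single library, so the conditions could not be tested against each other. All intervals and adjusted p-values below cover counting error within a library only, and promoters are not replicates, so no test was made between weak and strong promoters either. In 2 kb windows far from any TSS, the ratio of Jarid1b shRNA to scramble RPM was 0.664 under 35% GC and 1.48 at 55 to 60% GC, so the libraries differed in GC content away from promoters. As a check of the cell type, the promoters of 8 stem cell genes held 214 RPM in the Jarid1b shRNA library and 290 RPM in the scramble library in sum. The stem cell genes did not move together. Nanog held 20.9 RPM with Jarid1b shRNA and 47.9 RPM with scramble, and Zfp42, Tdgf1 and Dppa5a were likewise over 2-fold lower with Jarid1b shRNA. Pou5f1 was also lower, at 48.2 RPM with Jarid1b shRNA and 76.8 RPM with scramble. Sox2 and Klf4 were higher, Sox2 with 56.5 and 46.7 RPM and Klf4 with 51.6 and 29.7 RPM in the same libraries. The promoters of 6 fibroblast genes summed to 17.1 and 8.53 RPM in the same libraries. The annotated Esrrb TSS held 0 and 0.582 RPM, whereas the other 7 stem cell genes held at least 7.97 and 21.1 RPM.

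The DNA of these promoters is shown for 4 genes, as the 250 bases before the TSS on the gene's strand (mm9), with each CG dinucleotide in capitals. Pou3f3 (chr1:42753741-42753990, plus strand) and Gabbr2 (chr4:47004746-47004995, minus strand) were among the 3 highest ratios of H3K4me3 that the rule for naming genes admits. Dmrt3 (chr19:25684777-25685026, plus strand) had the highest Jarid1b. Gng8 (chr7:17476885-17477134, plus strand) had the lowest ratio among the compared promoters and was chosen after its values were seen. None of these stretches overlapped an annotated exon.
Pou3f3: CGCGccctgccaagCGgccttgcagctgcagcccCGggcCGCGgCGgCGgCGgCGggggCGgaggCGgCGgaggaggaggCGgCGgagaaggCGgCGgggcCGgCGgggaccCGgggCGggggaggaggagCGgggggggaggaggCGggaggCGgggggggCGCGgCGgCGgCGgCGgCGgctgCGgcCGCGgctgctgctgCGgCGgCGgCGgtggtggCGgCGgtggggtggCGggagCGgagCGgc
Gabbr2: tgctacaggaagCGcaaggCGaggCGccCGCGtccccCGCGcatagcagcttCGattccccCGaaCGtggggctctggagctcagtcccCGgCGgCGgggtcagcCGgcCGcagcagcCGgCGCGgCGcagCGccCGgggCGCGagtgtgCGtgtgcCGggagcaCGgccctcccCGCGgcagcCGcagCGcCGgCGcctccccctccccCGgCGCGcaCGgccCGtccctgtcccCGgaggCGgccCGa
Dmrt3: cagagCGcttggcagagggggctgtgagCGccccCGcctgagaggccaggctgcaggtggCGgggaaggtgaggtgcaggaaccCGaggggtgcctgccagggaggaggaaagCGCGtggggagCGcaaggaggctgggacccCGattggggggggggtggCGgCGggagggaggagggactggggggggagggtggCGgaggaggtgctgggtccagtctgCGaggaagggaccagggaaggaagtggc
Gng8: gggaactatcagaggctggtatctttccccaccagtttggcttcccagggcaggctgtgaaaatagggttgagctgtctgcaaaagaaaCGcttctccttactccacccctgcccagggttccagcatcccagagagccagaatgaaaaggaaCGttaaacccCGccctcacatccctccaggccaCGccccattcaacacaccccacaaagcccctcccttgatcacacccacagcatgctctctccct
The stretches held 43 CG dinucleotides at Pou3f3, 40 at Gabbr2, 13 at Dmrt3 and 4 at Gng8. Pou3f3 has several runs of the CGG triplet and 87.2% GC in this stretch, whereas Gng8 has 56% GC. Over all weak promoters the median was 13 (quartiles 8 and 22), against 22 (16 and 29) at strong promoters and 8 over all promoters. CG reads the same on both strands, and at least 1 was present in 99.5% of weak, 100% of strong and 92.5% of all such stretches.

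The weak and strong promoters were both chosen at 55% GC or more, so like GC content follows in part from the rule. They differed in CG dinucleotides. Median GC over the 2 kb window was 58.05% at weak and 58.65% at strong promoters. The median window held 95 CG dinucleotides at weak promoters, against 127.5 at strong ones. The observed count of CG over that expected from the C and G content, the CpG ratio, had a median of 0.562 at weak and 0.744 at strong promoters. A ratio of at least 0.6, a common line for a CpG island, was reached by 638 weak promoters (42.4%, Wilson 95% interval 39.97 to 44.96) and by 2300 strong promoters (87.1%, 85.7 to 88.3). The sequence from 1 to 3 kb away was richer in G and C around weak promoters, at a median of 50.2%, than around strong ones, at 45.1%.

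In the scramble library, which set the rule, the weak promoters held a median of 4.46 RPM (23 reads, quartiles 2.91 and 6.20), against 31.0 RPM at strong promoters. By level, 196 held 1 to 2 RPM, 415 held 2 to 4 RPM and 892 held 4 to 8 RPM. The lowest level inside the rule, 6 reads or 1.16 RPM, was held by 38 promoters with a median of 3.41 RPM in the Jarid1b shRNA library. The 42 promoters just outside, with 5 reads, had 2.28 RPM there. At the upper end, the 46 promoters with 41 reads had 18.97 RPM in the Jarid1b shRNA library and the 40 with 42 reads had 20.5 RPM. The 149 members within 0.5 percentage points above the limit of 55% GC had a median of 6.45 RPM in that library. The 150 promoters within 0.5 points below it had 6.07 RPM.

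Most of the weak promoters were enriched over their surroundings in the Jarid1b shRNA library. A promoter was called enriched when its reads exceeded the genome rate and the rate in the flanking 10 kb, whichever was larger, by a one-sided Poisson test with Benjamini-Hochberg adjusted p under 0.05 over all promoters. In the scramble library, whose reads set the rule, 1228 weak promoters (81.7%) passed this call, beside 60% of all promoters, which is given as a description only. In the Jarid1b shRNA library 1321 weak promoters (87.9%, 86.1 to 89.4) and 2640 strong promoters (99.9%) were enriched, against 59.9% of all promoters. Among all GC-rich promoters the share was 94.5%, so the weak ones lay below it. Both libraries called 1194 weak promoters, 127 (8.45%) were called with Jarid1b shRNA alone, 34 (2.26%) with scramble alone and 148 in neither. Over all promoters, 1.95% were called with Jarid1b shRNA alone and 2.07% with scramble alone. The rule limits scramble reads, and its part in the calls with Jarid1b shRNA alone was not tested. The calls depend on depth and on the local rate, and a call in 1 library alone is not a tested difference. In bulk cells, fewer alleles carrying the mark and less of the mark per allele cannot be told apart.

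The Jarid1b shRNA library, whose reads the rule did not use, gave a median of 11.8 RPM at weak promoters (quartiles 6.83 and 18.2, range 0 to 62.2) and 44.4 RPM at strong promoters (36.4 and 53.5, 10.6 to 145). The groups overlapped there: 299 weak promoters (19.9%, 17.95 to 21.99) lay above 20 RPM, as did 99.4% of strong promoters and 35.7% of all promoters. That count depended on the scaling of the library, and was 111 when scaled to a median ratio of 0, 454 when scaled to background reads and 506 with every row counted. Another 743 weak promoters lay between 8 and 20 RPM and 461 at or below 8 RPM. The strong median was 3.77 times the weak median in the Jarid1b shRNA library and 6.96 times in the scramble library. In Jarid1b replicates 1 and 2 it was 0.929 and 0.833 times the weak median. The highest level, 62.2 RPM in the Jarid1b shRNA library against 7.56 RPM in the scramble library, was at 8430427H17Rik, singled out after its value was seen.

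**Figure D1:**
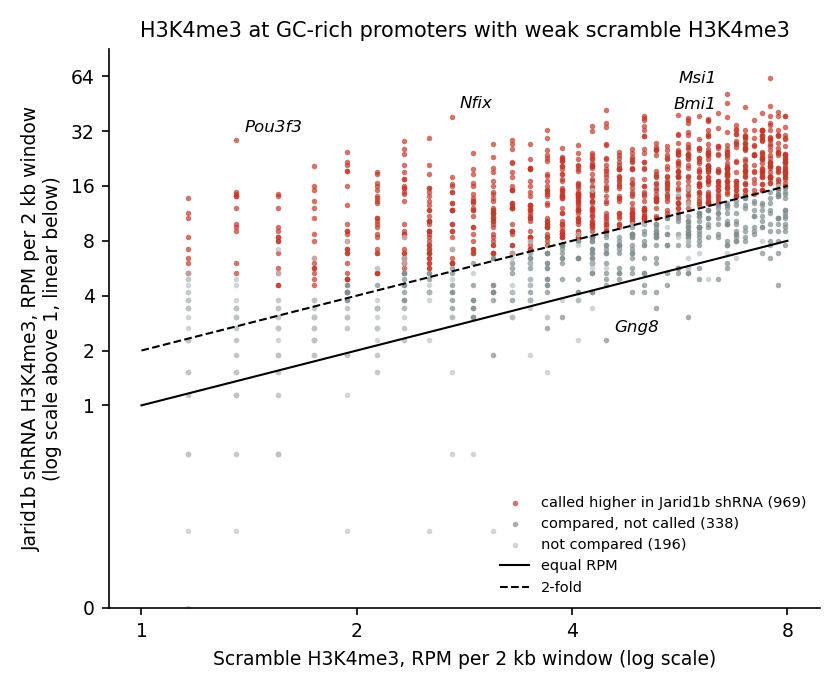
H3K4me3 in the Jarid1b shRNA library (vertical axis, RPM per 2 kb window) against the scramble library (horizontal axis, RPM, both log scales, the vertical one linear below 1) for the 1503 weak promoters, 1 point each. The solid line marks equal levels and the dashed line 2-fold, and the 969 red points are those called higher, all of them above the dashed line.

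The ratio of the libraries was taken where a promoter was enriched in at least 1 of them and their summed reads reached 20. It shares scramble reads with the rule, so its values here are a description. Of the weak promoters 1307 could be compared, and the remaining 196 had medians of 3.04 RPM with Jarid1b shRNA and 1.74 RPM with scramble. The median log2 ratio of Jarid1b shRNA over scramble was 1.47 at the compared weak promoters (quartiles 1.01 and 2.01, range −0.97 to 4.39), against 0.45 at 2641 strong promoters. It was above 0 at 1278 of the weak promoters and at or below 0 at 29. A ratio of at least 2-fold with an exact 95% Clopper-Pearson interval excluding 0 was found higher at 969 weak promoters and lower at 0. Over all compared promoters 24.2% were called higher and 2.4% lower, and 42.1% of compared GC-rich promoters were called higher. The GC-rich promoters at 8 to 20 scramble RPM had a median log2 ratio of 1.10, with 1247 of 2184 (57.1%) called higher. The intervals lay above 0 at 1029 weak promoters and below 0 at 0 of them. The strong promoters gave 361 higher and 4 lower calls.

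Each ratio was also divided by that of background windows of the same GC class. The median log2 ratio was then 0.74 at weak promoters, 0.32 at GC-rich promoters of 8 to 20 scramble RPM and −0.32 at strong promoters. Higher calls were fewer and lower calls more numerous, with 432 higher and 6 lower at weak promoters, beside 7.12% higher and 4.04% lower over all compared promoters, and 0 higher and 148 lower at strong promoters. The GC-rich promoters at 8 to 20 scramble RPM gave 107 higher and 15 lower. The class at or above 60% GC had 84 background windows, with a ratio of 2.20. What the libraries' GC difference contributes beyond this division was not tested. With every row counted, repeats included, the median log2 ratio of weak promoters was 1.71.

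Since the same scramble reads enter the choice and the ratio, both were also kept apart. Promoters were chosen on scramble reads at odd positions and the ratio was taken with scramble reads at even positions. This chose 1483 weak promoters, 1345 of them also in the original choice. Their pooled log2 ratio was 1.47 (1.448 to 1.497), against 0.46 (0.45 to 0.47) at 2642 strong promoters chosen likewise. With all positions in both roles the pooled values were 1.55 and 0.45. By class of the odd-position level, the pooled log2 ratio was 1.38 (1.23 to 1.53) under 1 RPM, 1.62 (1.53 to 1.72) at 1 to 2 RPM and 1.62 (1.56 to 1.67) at 2 to 4 RPM. It was 1.41 (1.38 to 1.44) at 4 to 8 RPM and 1.12 (1.11 to 1.13) at 8 to 20 RPM. The weak classes therefore lay above both stronger classes, while the intervals of the 2 classes from 1 to 4 RPM overlapped. Read positions of opposite parity come from the same library, so the split guards against sampling of the counts and not against differences between cultures.

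**Figure D2:**
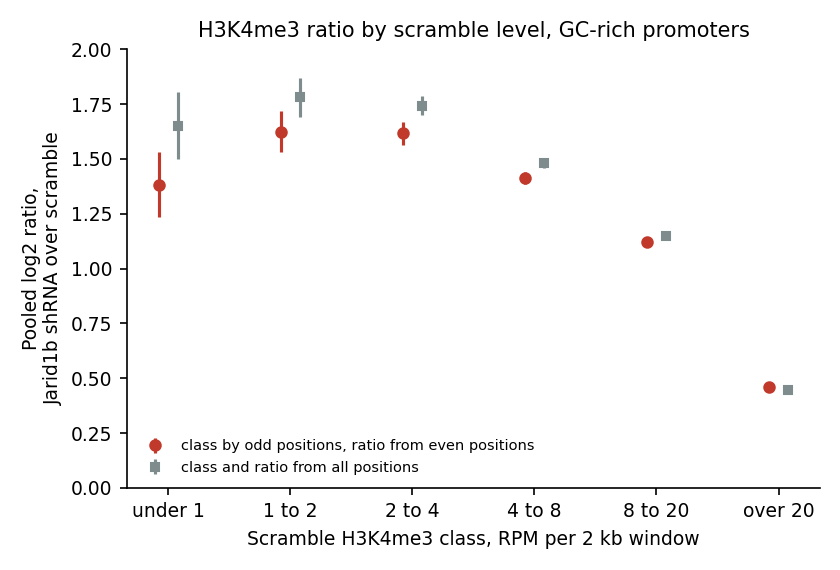
Pooled log2 ratio of H3K4me3, Jarid1b shRNA over scramble, by scramble level of GC-rich promoters (RPM per 2 kb window). Circles use odd positions for the class and even positions for the ratio, squares use all positions for both, and bars are 95% intervals of counting error. Circles stand at 1.62 for 1 to 4 RPM and at 0.46 over 20 RPM.

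Around the TSS the mark had the same position in both libraries and a different height. With reads moved 75 bases towards the fragment centre, the mean profile of weak promoters peaked 150 bases downstream in both. The peak was 16.0 RPM per kb in the Jarid1b shRNA library and 5.02 in the scramble library, 19.9 and 7.72 times the level of the outer flanks, over 5 kb from the TSS. The bins above the midpoint of flank and peak spanned 600 bases in both. Strong promoters peaked at the same place, at 51.1 RPM per kb with Jarid1b shRNA and 28.5 with scramble. Their bins above the midpoint added up to 700 bases with Jarid1b shRNA, all downstream of the TSS. With scramble such bins added up to 1100 bases, in separate blocks upstream and downstream of the TSS. The upstream block was a shoulder that reached 17.7 RPM per kb, so the 2 sums are not widths of a like peak. The Jarid1b shRNA level over the scramble level at weak promoters was 3.19 at the peak, 1.76 at 1 to 3 kb and 1.23 in the outer flanks. At strong promoters the same ratios were 1.80, 0.981 and 1.08.

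**Figure D3:**
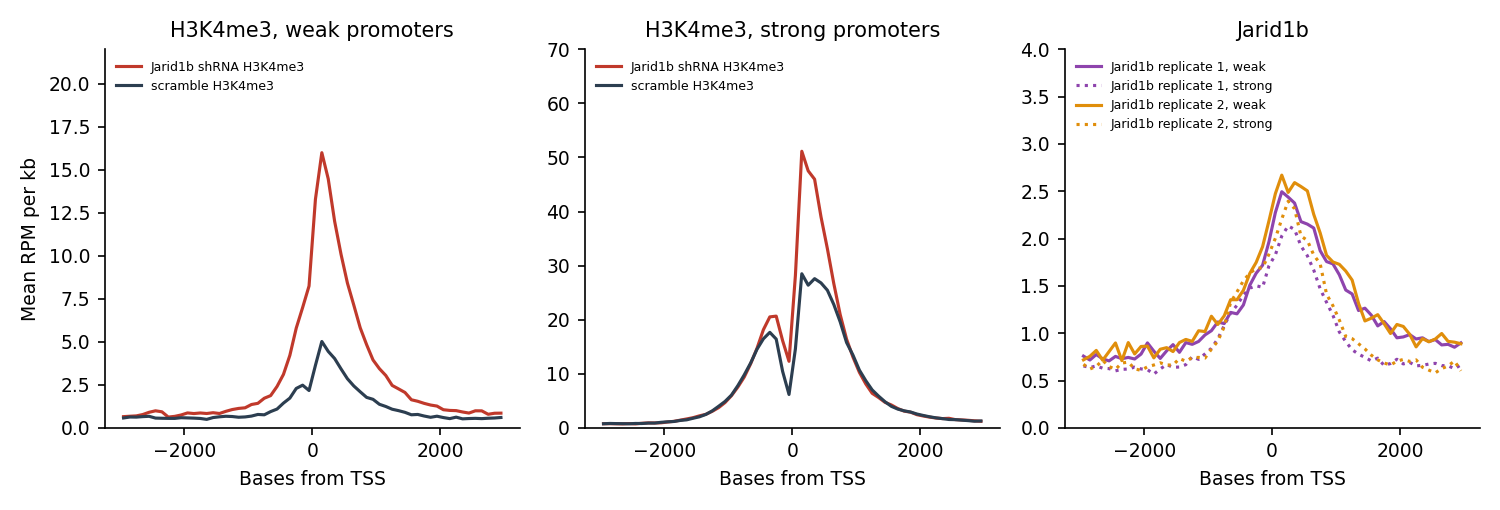
Mean RPM per kb in bins of 100 bases around the TSS, for H3K4me3 at weak promoters (left), H3K4me3 at strong promoters (middle) and Jarid1b at both (right), each panel with its own linear scale. At weak promoters the Jarid1b shRNA curve reaches 16.0 and the scramble curve 5.02, both 150 bases downstream, and in the right panel each weak curve lies above the strong curve of the same file downstream of the TSS.

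The ratio at weak promoters was graded with base composition. From 55 to 60% GC the median log2 ratio was 1.23 at weak and 0.28 at strong promoters. It was 1.91 and 0.69 at 60 to 65%, 2.46 and 1.01 at 65 to 70%, and 2.94 and 1.44 at 70% and over. Weak promoters were thus above strong ones in every class, and both climbed with GC, as the background windows did. By CpG ratio, the median level in the Jarid1b shRNA library was 4.55 RPM in 314 weak promoters under 0.4, 10.6 RPM in 551 at 0.4 to 0.6, 16.3 RPM in 538 at 0.6 to 0.8 and 22.8 RPM in 100 at 0.8 and over. The scramble medians of these 4 classes were 2.71, 4.85, 5.04 and 4.85 RPM, a range that the rule itself confines. Across 1307 compared weak promoters, which share both libraries, Pearson's r and Spearman's rho between CpG ratio and log2 ratio were 0.58 and 0.59, and between GC and log2 ratio 0.56 and 0.53.

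**Figure D4:**
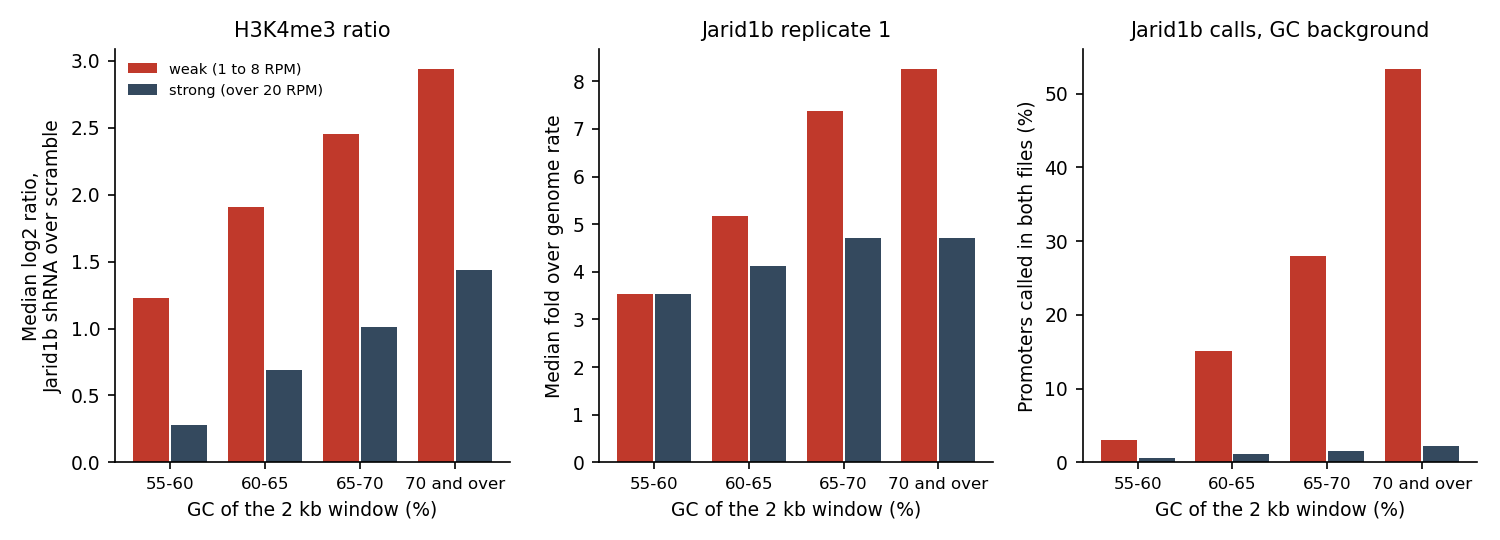
Weak promoters (red) and strong promoters (dark) by GC of the 2 kb window in %. The panels show the median log2 ratio of H3K4me3, the median Jarid1b fold over the genome rate in replicate 1, and the percentage called Jarid1b enriched in both files against background of the same GC class, which is 53.3% and 2.22% at 70% GC and over. All classes from 60% GC upwards share the same background class.

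Measured over the genome rate, Jarid1b levels were at least as high at weak promoters as at strong ones, although H3K4me3 was several times lower. The median fold over the genome rate was 4.13 in replicate 1 and 4.79 in replicate 2 at weak promoters, and 3.83 and 3.99 at strong promoters. Pooled over windows, it was 4.50 (4.44 to 4.55) and 4.89 (4.79 to 4.99) at weak promoters, and 3.89 (3.85 to 3.93) and 4.24 (4.17 to 4.31) at strong promoters. The median weak promoter held 14 and 6 reads in the 2 files, so single promoters were measured imprecisely. Both files called 355 weak promoters (23.6%, 21.5 to 25.8) and 482 strong promoters (18.2%, 16.8 to 19.8), against 7.8% of all promoters and 21.1% of all GC-rich ones. The GC-rich promoters at 8 to 20 scramble RPM gave 526 calls (24.0%, 22.3 to 25.8), so their share was like that of the weak ones. In replicate 1 alone the order was the other way, with 54.2% of weak and 58.3% of strong promoters called. In replicate 2 alone the shares were 27.5% and 24.1%.

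Background windows also held more Jarid1b reads at higher GC, 2.59 and 2.77 times the genome rate at 55 to 60% GC in the 2 files. Against background of the same GC, the median fold was 1.53 and 1.63 at weak promoters, and 1.36 and 1.44 at strong promoters. Both files then called 115 weak promoters (7.65%, 6.41 to 9.11) and 23 strong promoters (0.871%, 0.581 to 1.30), against 1.26% of all promoters. At 8 to 20 scramble RPM the GC-rich promoters gave 64 (2.92%, 2.29 to 3.71). By GC class the weak promoters gave 3.05%, 15.1%, 27.9% and 53.3%, of 1050, 370, 68 and 15 promoters from low to high GC. The strong promoters gave 0.655%, 1.11%, 1.55% and 2.22%. All promoters at or above 60% GC were set against the same background class of 84 windows, so the climb above 60% GC is not matched for GC. By CpG ratio, from under 0.4 to 0.8 and over in the 4 classes above, the calls in both files against genome and local rate covered 2.55%, 15.2%, 38.7% and 55% of weak promoters. The mean Jarid1b profile of weak promoters peaked at 2.49 and 2.67 RPM per kb, 150 bases downstream, and held 0.940 and 0.980 at 1 to 3 kb. The strong profile peaked at 2.13 and 2.40, 250 bases downstream, with 0.685 and 0.710 at 1 to 3 kb. Over the outer flanks, over 5 kb from the TSS, the peaks in replicates 1 and 2 were 3.55 and 3.65 times as high at weak promoters. At strong promoters they were 3.30 and 3.67 times as high, so replicate 2 gave no higher value at weak promoters by this measure. At 1 to 3 kb the GC content also differed between the groups, as given above, and its part in the Jarid1b difference was not tested.

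Weak promoters with Jarid1b had more H3K4me3 in the Jarid1b shRNA library. The 355 called in both files had a median of 16.7 RPM there and 4.85 RPM in the scramble library, while the 1148 not called had 10.2 and 4.26 RPM. Their median log2 ratios were 1.86 and 1.35. The called promoters were also richer in G and C, with medians of 60.6% and 57.6%. Across the 1307 compared weak promoters Pearson's r between mean Jarid1b fold and log2 ratio was 0.37 and Spearman's rho 0.33. Between Jarid1b fold and GC they were 0.54 and 0.47 over all 1503, so the share of this relation that goes with GC was not tested.

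Gene lists for 17 families or functions were then set against the scramble classes. Of 193 GC-rich promoters in the 4 lists of developmental transcription factors, 137 (70.98%) were weak and 7 strong, beside 23.04% and 40.5% of all GC-rich promoters. Of 215 in the 4 lists of neuronal genes (axon guidance, cation channels, neurotransmitter receptors and synaptic genes), 113 (52.6%) were weak and 21 strong. The 3 lists of pluripotency genes, of ribosomal protein genes, and of proteasome and oxidative phosphorylation genes had 57 GC-rich promoters, of which 4 (7.02%) were weak and 46 strong. Those 4 belonged to Dnmt3l, Mrps24, Psmb8 and Psmb11, named here after their values were seen, and none could be compared. In no list were 1145 weak promoters, so most members lay outside these families.

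**Figure D5:**
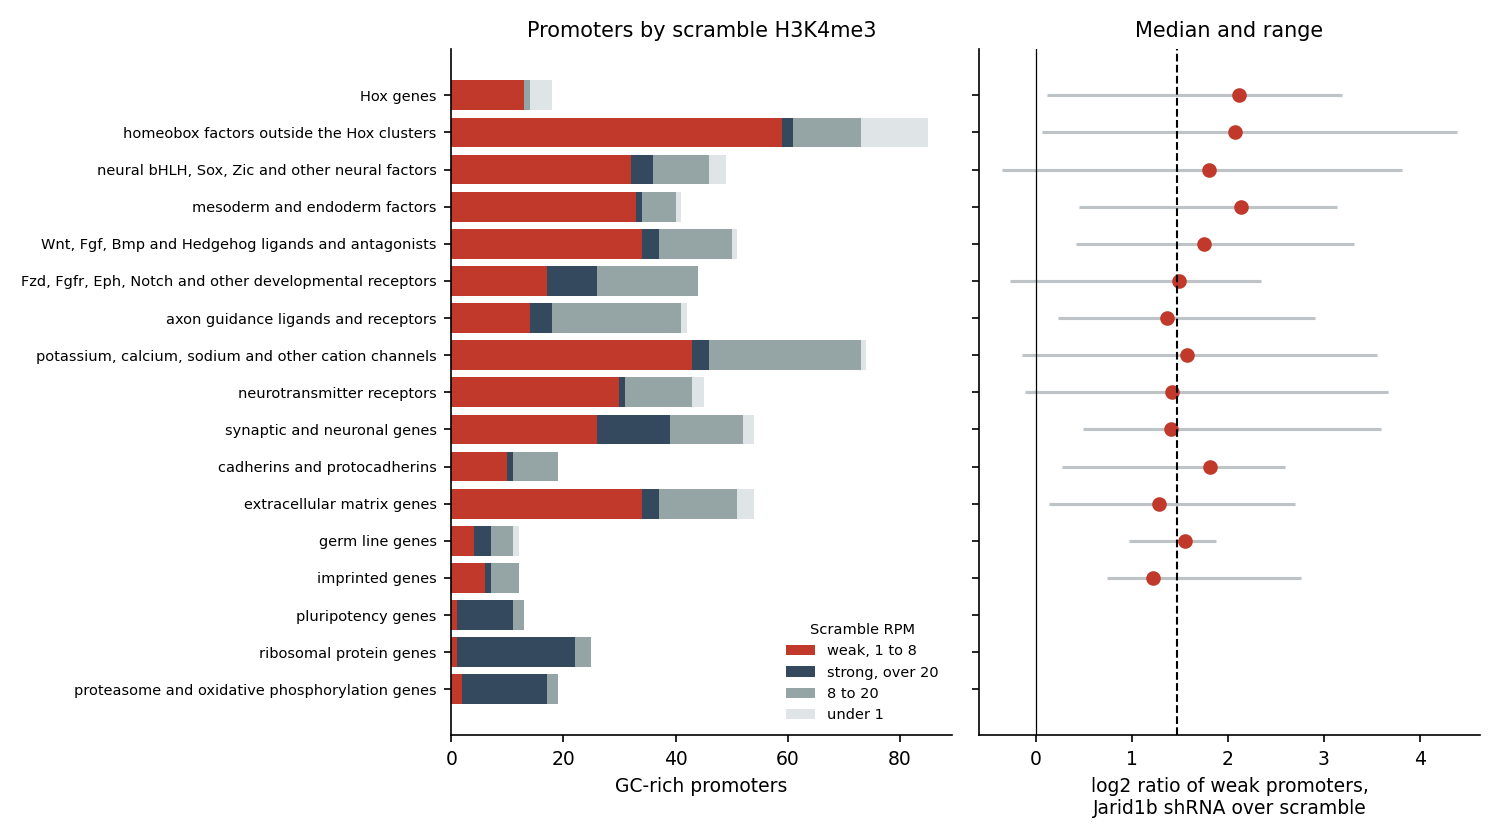
Left, number of GC-rich promoters of each gene list by scramble level, with weak ones in red. Right, median (point) and range (line) of the log2 ratio of H3K4me3, Jarid1b shRNA over scramble, at the compared weak promoters of each list, with the median of all compared weak promoters, 1.47, as a dashed line. The Hox, homeobox, and mesoderm and endoderm lists have their medians above 2, and the 3 lowest lists have no compared weak promoter.

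Of these groups, the transcription factors had the highest median ratio and the largest share of Jarid1b calls. Of their 127 compared weak promoters 114 were called higher, and their log2 ratios had a median of 2.04. Of all 137, 71 (51.8%) were called Jarid1b enriched in both files. Against background of the same GC the Jarid1b calls were 47 (34.3%). The neuronal lists gave 87 higher calls of 105, a median log2 ratio of 1.43, 37 Jarid1b calls (32.7%) and 9 (7.96%) against background of the same GC. Weak promoters in no list gave 699 higher calls of 980, a median of 1.41, 216 Jarid1b calls (18.9%) and 51 (4.45%). Median GC in these 3 groups was 60.5%, 59.2% and 57.8%. In the same order, the median levels of all their weak promoters were 13.3, 13.3 and 11.4 RPM with Jarid1b shRNA. With scramble, in the library that set the rule, they were 3.30, 4.65 and 4.65 RPM. The transcription factors thus differed from the neuronal lists in the scramble median and not in the Jarid1b shRNA median. The stem cell markers Pou5f1, Nanog, Zfp42, Tdgf1 and Dppa5a were lower, and Sox2 and Klf4 higher, in the same Jarid1b shRNA library, as given above. The part of cell state in these ratios was not tested. The lists were drawn up with results of these data known, and these counts are a description.

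Over all compared weak promoters 969 of 1307 (74.1%) were called higher, and the lists are read beside that share. By list, the compared weak Hox promoters were called higher at 9 of 11 and those of other homeobox factors at 54 of 56. Neural factors gave 25 of 30 and mesoderm and endoderm factors 26 of 30. Among signalling genes, Wnt, Fgf, Bmp and Hedgehog ligands and antagonists gave 27 of 32 and developmental receptors 14 of 16. Axon guidance genes gave 11 of 13, cation channels 32 of 38, neurotransmitter receptors 24 of 29 and synaptic genes 20 of 25. Cadherins gave 7 of 10, extracellular matrix genes 17 of 29, germ line genes 2 of 3 and imprinted genes 3 of 6. None of these lists had a lower call. After division by background of the same GC, the median log2 ratios of these 14 lists ran between 0.33 (imprinted genes) and 1.13 (homeobox factors outside the Hox clusters), beside 0.74 over all compared weak promoters.

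Among the genes that the naming rule admits, the transcription factors Pou3f3 and Nfix had the largest ratios. Ebf3 and Msx1 were also among its 8 highest. The promoter of Pou3f3, a POU factor of neural progenitors and cortical neurons, held 28.5 RPM (75 reads) in the Jarid1b shRNA library, against 1.36 RPM (7 reads) in the scramble library. Its log2 ratio was 4.39 (3.28 to 5.75), the highest of all compared weak promoters. Jarid1b was 6.19 and 9.58 times the genome rate there, with Poisson tests giving Benjamini-Hochberg adjusted p of 0.00113 and 0.000209. The scramble library thus held about as little mark as the lowest members, while the level with Jarid1b shRNA was above most. Nfix, of the nuclear factor I family, held 38.3 RPM with Jarid1b shRNA and 2.71 RPM with scramble. Ebf3, a factor of neuronal differentiation, held 29.2 RPM with Jarid1b shRNA and 2.52 RPM with scramble, and its Jarid1b folds of 13.3 and 16.0 put it also among the 6 highest by Jarid1b. Msx1, a homeobox factor of the face and limb, held 13.7 RPM with Jarid1b shRNA and 1.16 RPM, or 6 reads, with scramble.

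The other promoters with the largest ratios belonged mainly to genes of neurons. Gabbr2, a subunit of the GABA-B receptor, held 24.7 RPM with Jarid1b shRNA and 1.94 RPM with scramble. Begain, which encodes a protein of the postsynaptic density, held 28.1 and 2.33 RPM in those libraries. Kcnd3, a voltage-gated potassium channel, held 20.5 and 1.74 RPM, and Vstm2b held 21.6 and 1.94 RPM. All 4 had a log2 ratio between 3.48 (Vstm2b) and 3.67 (Gabbr2). Jarid1b was called in both files at Begain and Vstm2b, and not at Gabbr2 and Kcnd3, whose replicate 2 held 4 and 7 reads. Against background of the same GC, none of these 4 was called in both files.

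The highest levels in the Jarid1b shRNA library were near those of strong promoters. Msi1, an RNA-binding protein of neural stem cells, held 51.2 RPM there and 6.59 RPM in the scramble library. Bmi1, a subunit of Polycomb repressive complex 1, held 45.9 and 6.59 RPM in the same libraries, and its Jarid1b folds were 7.37 and 16.0. Brsk2, a kinase of neuronal polarity, held 44.0 and 7.56 RPM. Msi1 and Bmi1 lay above the strong median of 44.4 RPM with Jarid1b shRNA and Brsk2 just below it, and all 3 had scramble levels near the upper end of the rule. Shisa6, which encodes an auxiliary protein of AMPA receptors, held 43.6 and 6.98 RPM, Cabp1, a calcium-binding protein, 41.7 and 4.46 RPM, and Ankrd34b 41.0 and 7.75 RPM.

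The highest Jarid1b signals were mostly at transcription factors. Dmrt3, a factor of spinal interneurons, had Jarid1b folds of 13.9 (10.2 to 18.4) and 18.4 (11.6 to 27.6) over the genome rate, and held 36.8 RPM of H3K4me3 with Jarid1b shRNA and 6.20 RPM with scramble. Foxf1a, a forkhead factor of lung and gut mesenchyme, had folds of 12.4 and 15.2, and held 25.4 and 3.30 RPM of H3K4me3. Gsx1, a homeobox factor of the ventral forebrain, had folds of 9.44 and 16.8, and held 13.3 and 1.74 RPM. Dmrt3, Foxf1a and Gsx1 thus had like Jarid1b folds in replicate 2 and unlike H3K4me3 levels with Jarid1b shRNA. Irx5, an Iroquois homeobox factor, had folds of 11.8 and 14.4 with 17.1 and 3.49 RPM of H3K4me3. Adrb1, the beta-1 adrenergic receptor, had folds of 11.8 and 13.6 with 28.8 and 7.95 RPM.

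Other developmental regulators with high levels in the Jarid1b shRNA library were Irx2 (38.7 RPM, against 7.75 RPM with scramble), Hoxc13 (31.9 against 7.37 RPM), Ebf4 (31.5 against 6.59 RPM) and Lhx4 (30.4 against 7.75 RPM). Lhx4, a LIM homeobox factor of the pituitary, had Jarid1b folds of 14.2 and 11.2. Hoxd1 held 25.4 RPM with Jarid1b shRNA and 6.59 RPM with scramble, and Jarid1b was not called there in replicate 2. Foxq1, a forkhead factor, and Tbx2, a T-box factor of heart and limb, both held 27.3 RPM with Jarid1b shRNA, and 3.30 and 3.10 RPM with scramble. Both were called for Jarid1b in both files, and against background of the same GC only Tbx2 was.

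Among signalling genes, the ligand Wnt4 held 36.8 RPM with Jarid1b shRNA and 5.04 RPM with scramble. The Bmp antagonist Chrd held 34.5 and 7.56 RPM. Of the receptors, the Wnt receptor Fzd1 held 26.6 and 5.43 RPM and Notch3 held 25.04 and 7.56 RPM. Jarid1b passed in both files at Fzd1 and in neither at Chrd and Notch3, so these ratios came with and without a Jarid1b call. Against background of the same GC, Fzd1 was not called in both files either. Rgma, a repulsive guidance ligand, held 27.7 and 6.98 RPM, and Plxna4, a semaphorin receptor, 26.2 and 5.82 RPM. Of channels and receptors, Kcnj4, an inward rectifier, held 32.2 and 5.04 RPM and Kcnc4 30.0 and 5.04 RPM. Grid1 and Grm4, both glutamate receptor genes, each held 38.7 RPM with Jarid1b shRNA, and 6.01 and 5.04 RPM with scramble.

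At the synaptic gene Syt12 the levels were 24.7 RPM with Jarid1b shRNA and 7.37 RPM with scramble. The adhesion genes Pcdh1 and Cdh22 held 28.1 and 26.9 RPM with Jarid1b shRNA, and 6.79 and 4.46 RPM with scramble. Adamts2, a procollagen protease, held 30.4 RPM with Jarid1b shRNA and 5.62 RPM with scramble, and Bcan, a brain proteoglycan, held 23.5 and 6.40 RPM. Germ line genes had lower levels: Tdrd6, of germ cell granules, held 12.1 and 3.30 RPM, and Smc1b, a meiotic cohesin subunit, held 8.35 and 4.26 RPM. The log2 ratio of Smc1b, 0.97 (0.05 to 1.89), fell short of 2-fold. The imprinted genes Dio3, a deiodinase, and Kcnq1, a potassium channel, held 25.04 and 16.3 RPM with Jarid1b shRNA, and 3.68 and 5.43 RPM with scramble.

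The other end of the range was thinly populated. No compared weak promoter had an interval below 0, so the naming rule admitted no gene with a lower ratio. The lowest ratio was at Gng8, a G protein gamma subunit, with 2.28 RPM (6 reads) in the Jarid1b shRNA library and 4.46 RPM (23 reads) in the scramble library. Its log2 ratio of −0.97 had an interval of −2.56 to 0.51, and Jarid1b was called there in neither file. The window had 56.0% GC and a CpG ratio of 0.447. The 338 promoters that were compared and not called had a median CpG ratio of 0.456 and the 969 called higher 0.630. The 196 not compared had 0.308, with 4 Jarid1b calls.

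Neighbouring TSSs touched few of these windows. A TSS of another coding gene lay within 2 kb of 126 weak promoters (8.38%), and their median log2 ratio was 1.33, against 1.48 at the other 1377. Such neighbours were more common at strong promoters, of which 1779 of 2642 had none. Those 1779 had a median log2 ratio of 0.55, against 0.45 over all strong promoters. The part of neighbours in the strong levels was not tested. Windows of 90 members overlapped that of another member and share reads. Among the named genes, another coding TSS lay 142 bases from that of Smc1b and 283 bases from that of Hoxc13. The distance was 1163 bases at Foxq1, 1384 at Chrd and 1676 at Irx5. Reads in these windows cannot be assigned to the named gene alone. Another coding TSS of the same gene at least 2 kb away existed for 371 members, and 17 of these (4.58%) had more than 20 scramble RPM there. At strong promoters it was 44 of 665 (6.62%). By chromosome the median log2 ratio of weak promoters ran between 1.23 on chromosome 17 and 1.79 on chromosome 1.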

How the data were processed

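The authors aligned the tags to mm9 using Bowtie (per the submitters' processing notes, version not given in the sources used here). Keeping 1 match per position, MACS peaks and IgG normalization are further steps per the labels' protocols. The deposited rows are single reads that still repeat positions, and the deposited score column is 0 in every row, so the files come before those steps. IgG reads and peaks were not used here. Reads that repeated a 5′ position on the same strand were dropped on chromosomes 1 to 19, X and Y, and the rest counted unshifted, except in the TSS profile. RPM are per 1000000 reads kept, 1 read being 0.379 RPM with Jarid1b shRNA and 0.194 RPM with scramble. The Jarid1b files share fragments and were counted as 1 sample. Intervals of ratios are exact Clopper-Pearson intervals and those of shares are Wilson intervals. Without molecular identifiers reads are not independent molecules, so intervals hold counting error alone.

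Background windows were 953440 autosomal windows of 2000 bases, over 5 kb from any TSS, not H3K4me3 enriched and under 100 reads, in 7 classes of GC. The TSS profile used bins of 100 bases. Sequences were read from the NCBIM37 assembly, which underlies mm9. The naming rule took, among members with a single-gene symbol that is no Gm number or Rik clone, the 8 highest ratios (at least 40 reads) and any of the 6 lowest with an interval excluding 0. It also took the 6 highest levels with Jarid1b shRNA, the 6 highest mean Jarid1b folds among promoters called in both files, and from each list with 3 or more members the 2 highest levels with Jarid1b shRNA. Sequences followed the same rule, apart from chromosome 18, and 1 sequence that it selects is not reported here. The members and lists were chosen with earlier results of these data known. The calculations were tested on simulated data and run with Python 3.11.15, numpy 2.4.6, scipy 1.17.1 and pandas 2.3.3. Alternatives were tried in 16 settings of position, repeats, scaling, thresholds, background and file.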

Additional observations from a re-analysis of the deposited data

How the results depend on the processing

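Of 80 alternative values, 49 stayed within their limits, 31 moved and 0 reversed. A median had to stay in its 95% interval, and a count within a set factor of the reported one. The weak median log2 ratio lay above the strong one in 16 of 16 settings, by 0.92 to 1.27. Settings that scale both groups alike, or leave the ratio alone, could not change that order. Only the split by odd and even positions keeps the scramble reads of the choice out of the ratio. The cause of each move was not tested, except that stricter limits keep fewer promoters by construction. With every row counted, repeats included, the median with Jarid1b shRNA was 13.7 RPM, the median log2 ratio 1.71, the promoters above 20 RPM 506, and the lower calls 1. Higher calls were then 1365 of 1686 compared, against 969 as reported, a count still within the limits. Scaling to a median ratio of 0 over all compared promoters, a shift of 0.41 on the log2 scale, gave 8.86 RPM, a log2 ratio of 1.06, 111 above 20 RPM and 3 lower calls. Higher calls fell to 690 (52.8% of those compared), also within the limits. Scaling to background reads, a shift of −0.27, gave 14.2 RPM, a log2 ratio of 1.74, 454 above 20 RPM and 1090 higher calls. A GC minimum of 60% left 453 members, with 18.97 RPM, a log2 ratio of 2.02, 415 higher calls, 197 above 20 RPM, 442 enriched with Jarid1b shRNA, 201 Jarid1b calls and a median Jarid1b fold of 5.996. A lower limit of 2 RPM gave 12.9 RPM. Without a filter the log2 ratio was 1.37, with 1 lower call, and with at least 10 reads there was 1 lower call. A 3-fold threshold left 587 higher calls. Division by background of the same GC gave 0.74, 432 higher and 6 lower calls. An adjusted p under 0.001 left 95 Jarid1b calls, and background of the same GC 115. Leaving out either Jarid1b file gave 414 to 814 Jarid1b calls, and a median Jarid1b fold of 4.13 to 4.79, against 4.46 over both. At this depth 3 reads are 1.14 RPM with Jarid1b shRNA and 0.582 RPM with scramble, and the median weak promoter held 31 and 23 reads. No paired analysis was possible because each H3K4me3 condition has 1 library, so the conditions compared share fewer than 2 replicate numbers.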
